A study of Mus musculus with 18 samples.

Results

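Orpk cells sheared at 30 dyn/cm2 are set here against orpk cells sheared at 2 dyn/cm2. The members were chosen by label and are all 6 orpk libraries under flow, 3 at each shear, out of 18 libraries in the series, with the 13058 of 21647 listed genes that held enough reads to test. Orpk is an insertion in the mouse gene Tg737, also called Ift88, and both groups were homozygous for it. The labels name the cells embryonic aortic endothelial cells. Cells were grown on gelatin in medium with 2% serum. Both groups were starved of serum for 24 h and then held under laminar flow for 48 h, and by label shear alone differed between them. The labels do not say how many animals, isolations or clones stand behind the 3 libraries of a group. The p-values therefore rest on how far these libraries varied, and that variation may be technical only. Orpk cells kept static and WT cells at both shears are given for their levels. WT cells also serve to test whether the step in shear differed between orpk and WT cells. That test cannot tell the genotype from other differences between the cultures.

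Endothelial cells sense shear through junctions, ion channels, the actin cytoskeleton and the primary cilium, an antenna that intraflagellar transport builds and that needs Ift88. Steady high shear is known to hold arterial endothelium quiescent, with high Klf2, Klf4 and Nos3, whereas low shear is known to favour leukocyte adhesion genes. Endothelial cells can also take on matrix, integrin and smooth muscle genes under TGF-beta, a change known as endothelial-to-mesenchymal transition.

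Levels are in CPM, a gene's reads scaled to a common library size, here after TMM scaling, which corrects library totals for a few very abundant genes. Ift88, the targeted gene (ENSMUSG00000040040, GRCm38 chromosome 14, 57424062 to 57517936, plus strand), held 6.37, 7.36 and 6.98 CPM at 30 dyn/cm2 and 7.87, 7.16 and 8.17 CPM at 2 dyn/cm2. The libraries of the groups overlapped, and the log2 fold change of -0.16 ± 0.12 (standard error, SE) missed the threshold (adjusted p = 0.245, edgeR quasi-likelihood test). WT cells averaged 13.3 CPM at 30 and 14.5 CPM at 2 dyn/cm2, higher than in orpk cells at both shears. Which exons the insertion removes is not given in the sources used here, so the level over the whole gene checks the genotype labels only in part, and 2 genes overlap Ift88 on the other strand. The defining endothelial markers were nearly absent. Of 29 in the table, 17 had enough reads to test, and Fli1, Cldn5, Robo4, Sox17 and Sox7 had no read in the 6 libraries. Pecam1, an endothelial adhesion molecule, held 0.225, 0.0714 and 0.465 CPM at 30 and 0.132, 0.18 and 0.124 CPM at 2 dyn/cm2. Cdh5, the cadherin of endothelial junctions, averaged 1.12 ± 0.407 CPM at 30 and 0.579 ± 0.193 CPM at 2 dyn/cm2 (SD, n = 3 each). Other genes of the list were plainly present, such as Cd34, a surface sialomucin, at 743 ± 6.59 CPM at 30 and 518 ± 26.4 CPM at 2 dyn/cm2 (SD, n = 3 each). Flt1, a VEGF receptor, averaged 127 ± 0.701 CPM at 30 and 80.5 ± 5 CPM at 2 dyn/cm2 (SD, n = 3 each). The cells are called orpk cells here, since the markers do not carry the label.

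Library totals in the 6 libraries ran from 14556970 to 17387553 counts. The 10 most abundant genes took 6.397% to 6.608% of counts at 30 dyn/cm2 and 5.161% to 5.699% at 2 dyn/cm2. Replicate 2 at 2 dyn/cm2 stood apart. Its counts differed from those of replicates 1 and 3 by a chi-square of 3.28 and 3.66 per degree of freedom, whereas replicates 1 and 3 differed by 1.55. The summed level of 42 matrix genes ran from 85420 to 89540 CPM at 30 dyn/cm2, and at 2 dyn/cm2 it was 67100 CPM in replicate 2 beside 59660 and 58170 CPM in replicates 1 and 3. Without it, 3955 genes were higher and 3880 lower at 30 dyn/cm2, and of the 8306 calls described next 91.7% passed again, while 0 turned in direction. Since this is bulk RNA, fewer cells of a type and less RNA per cell cannot be told apart.

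At 30 dyn/cm2, 8306 of 13058 genes (63.6%) differed from 2 dyn/cm2 at an adjusted p under 0.05, of which 4190 (32.1%) were higher and 4116 (31.5%) lower. The count of each gene list is set against these shares of all genes, and where its own shares lie near them it says nothing particular of the list. Most of these differences were small, with a median size of 0.39 on the log2 scale among the calls. A change of more than 1 on the log2 scale, a factor of 2 in level, was seen in 438 genes (3.35%) that rose and 858 (6.57%) that fell. With library totals in place of TMM, 2916 genes were higher and 5551 lower, since the median of all genes then moved to -0.124 on the log2 scale. Changes are therefore given relative to the typical gene. Libraries of the 2 shears did not overlap in 4466 genes (34.2%) that were higher and 4442 (34.0%) that were lower at 30 dyn/cm2. The first principal component of the 6 libraries took 81.7% of their variance and separated the shears.

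**Figure D1:**
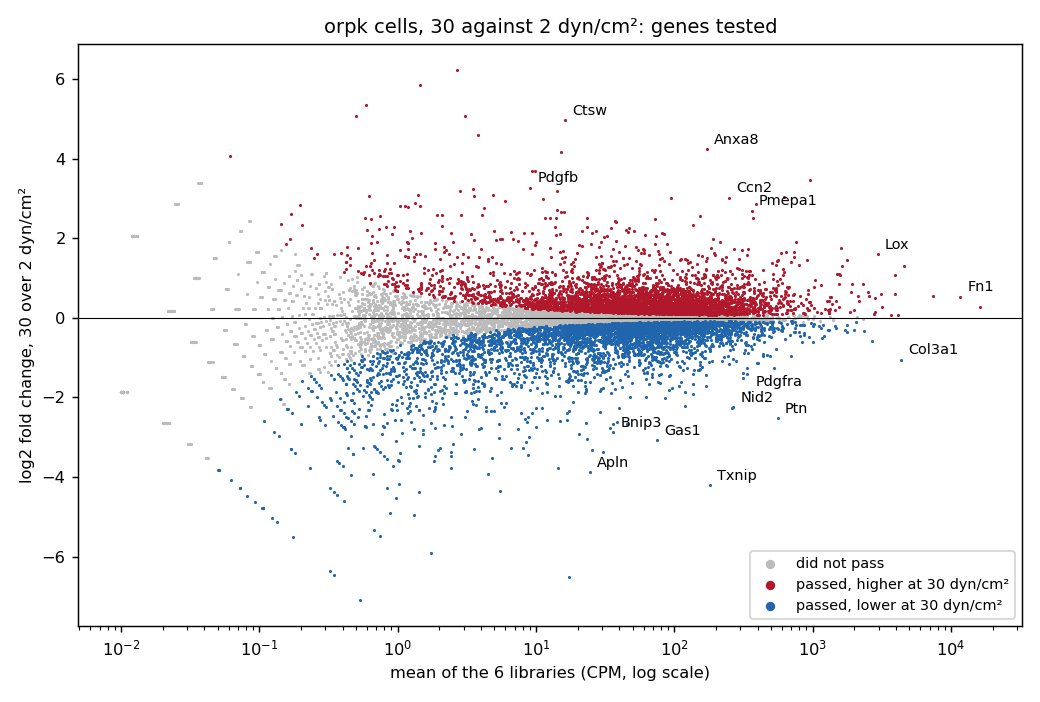
Each point is 1 of the 13058 genes tested, with its mean CPM over the 6 orpk libraries on a log axis and its log2 fold change (30 over 2 dyn/cm2) on the other. The 4190 genes that rose and the 4116 that fell are coloured. Anxa8 and Ccn2 stand out above and Txnip below among abundant genes.

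The strongest rises among well measured genes reached more than 10 times the level at 2 dyn/cm2. Ctsw, which encodes the protease cathepsin W, held 32.8, 30.9 and 31.1 CPM at 30 dyn/cm2 and 0.794, 0.902 and 1.3 CPM at 2 dyn/cm2, 31.3-fold higher. Anxa8, an annexin that binds membranes with calcium, held 323, 321 and 332 CPM at 30 and 16.6, 15.9 and 19.2 CPM at 2 dyn/cm2. The libraries of the shears were far apart in both genes, with log2 fold changes of 4.97 ± 0.14 and 4.24 ± 0.06 (SE; adjusted p = 4.36e-29 and 5.78e-38, edgeR). The naming rule for the strongest rises and falls took only called genes without overlap. Neither the lack of overlap nor the passing of the threshold is therefore separate support for them. Among the 15 highest by the naming rule were also Pi16, a secreted peptidase inhibitor (4.16 on the log2 scale), Slurp1 (3.69), Prg4, the joint lubricant lubricin (3.69), Ifitm10 (3.20), and the basement membrane chains Lamb3 (2.94) and Col4a3 (2.71). Ptgs2, the prostaglandin-forming enzyme COX-2, held 695, 681 and 681 CPM at 30 and 98.8, 82 and 99.9 CPM at 2 dyn/cm2. Its libraries did not overlap, and the rise was 7.33-fold (adjusted p = 6.15e-17, edgeR).

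The strongest falls were of similar size. Apln, the peptide apelin that tip endothelial cells secrete, held 2.7, 3.14 and 3.49 CPM at 30 and 44.1, 47 and 45.8 CPM at 2 dyn/cm2, 14.7-fold lower. The libraries of the shears were clear of each other, as the naming rule required (edgeR adjusted p = 3.06e-30). Ptn, the growth factor pleiotrophin, held 170.0, 163 and 164 CPM at 30 and 919.7, 1059 and 872 CPM at 2 dyn/cm2, and had one of the 8 largest falls in CPM. The 15 lowest also held Lrrn3 (-3.77 on the log2 scale), the GTPase-activating protein Arhgap20 (-3.31), Clec3b (-3.27), the alcohol dehydrogenase Adh1 (-3.26), Cdh26 (-3.12), Cdsn (-3.05), Abca9 (-3.02) and Pi15 (-2.98).

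**Figure D2:**
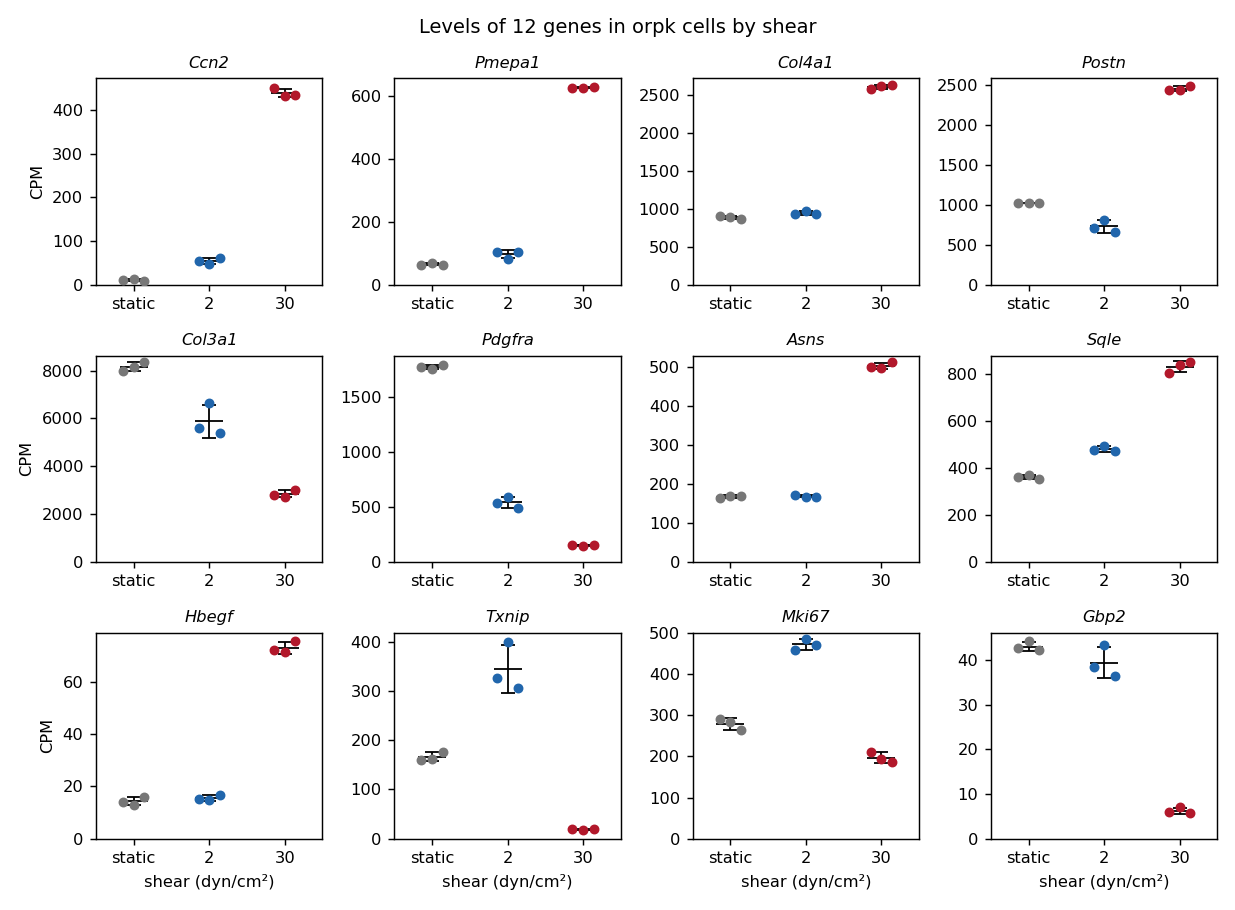
CPM of 12 genes in the 9 orpk libraries (points), with the mean and SD of 3 libraries at each shear; each vertical axis starts at 0. Ccn2 and Pdgfra differ at each shear, whereas Pmepa1, Postn, Asns, Hbegf and Gbp2 differ most between 2 and 30 dyn/cm2, and Txnip and Mki67 are highest at 2 dyn/cm2.

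Targets of YAP and TAZ, coactivators that enter the nucleus when cells spread or are stretched and act through TEAD factors, were mostly higher. Of 26 measured targets, 16 (61.5%) rose and 5 (19.2%) fell, with a median log2 change of 0.235 beside -0.009 over all genes. With library totals the counts were 13 and 8. Ccn2, a matricellular protein and a classic target (chromosome 10, 24595442 to 24598683), held 449.8, 433 and 433 CPM at 30 and 53, 47.5 and 60.9 CPM at 2 dyn/cm2. The lowest library at 30 dyn/cm2 was several-fold above the highest at 2 dyn/cm2, and the log2 fold change was 3.03 ± 0.09 (SE; edgeR adjusted p = 2.85e-14). Static cells averaged 10.3 CPM, so Ccn2 stood higher at each level of shear. Ccn1, its close relative, held 857, 851 and 840.5 CPM at 30 and 383, 359.8 and 407 CPM at 2 dyn/cm2, and also did not overlap. Fjx1 (1.99 on the log2 scale), the factor Tead4 itself (1.30), the kinase Nuak2 (1.24) and the receptor kinase Axl (0.83) rose, whereas the ligand Tgfb2 (-0.72) and the ectonucleotidase Nt5e (-0.93) fell. Ankrd1, a muscle ankyrin repeat protein, rose by 0.26. The step differed from that in WT cells in 13 targets that were higher and 5 that were lower relative to WT (interaction test, which called 25.0% of all genes higher and 21.5% lower).

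The TEAD motif GGAATG, searched on both strands, was in 8 of 18 targets with a RefSeq promoter of 250 bases before to 50 after the start (44.4%), and in 14.7% of all 32851 promoters. A listed gene counted once if any of its promoters held the motif, whereas all promoters were counted singly. Genes with several promoters had more chances of a match, so these shares are not like for like, here and below. The promoters of Ccn1 and Ankrd1 are shown because these targets rose and hold the motif, with it in capitals (GRCm38.p6, RefSeq; chr3:145649936-145650235 and chr19:36119795-36120094, both minus strand). These matches describe the letters and not binding.
Ccn1: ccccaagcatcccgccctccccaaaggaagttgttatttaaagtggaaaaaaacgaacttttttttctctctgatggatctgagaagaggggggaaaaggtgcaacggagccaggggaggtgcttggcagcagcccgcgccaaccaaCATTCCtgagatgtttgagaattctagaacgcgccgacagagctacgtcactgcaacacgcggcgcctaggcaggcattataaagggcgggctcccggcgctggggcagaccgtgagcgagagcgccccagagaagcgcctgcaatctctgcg
Ankrd1: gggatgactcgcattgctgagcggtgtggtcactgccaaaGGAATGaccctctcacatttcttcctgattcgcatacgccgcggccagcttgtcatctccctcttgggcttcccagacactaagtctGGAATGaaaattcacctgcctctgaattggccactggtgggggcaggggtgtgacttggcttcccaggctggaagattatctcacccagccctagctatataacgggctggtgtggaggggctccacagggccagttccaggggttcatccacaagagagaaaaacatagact

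The list of TGF-beta and BMP genes, 2 branches of one ligand family, split, with 11 of 27 measured genes (40.7%) higher and 7 (25.9%) lower, beside 32.1% and 31.5% of all genes. Pmepa1, which TGF-beta induces and which blocks its signal, held 625, 624 and 626 CPM at 30 and 102, 82.8 and 105 CPM at 2 dyn/cm2, 6.47-fold higher. No library came near the other group (log2 fold change 2.69 ± 0.05, SE; edgeR adjusted p = 9.10e-26). The other feedback genes Smad7 (1.02 on the log2 scale), Skil (1.24) and Tgif1 (1.37) rose too. Among ligands and their binding proteins, Inhba, the activin A chain (1.42), Tgfb3 (1.43), Gdf15 (1.61) and Ltbp2, which binds matrix fibrils (3.01), rose, and so did the BMP antagonist Grem1 (1.21). Gdf15 was scarce, with means of 2.05 CPM at 30 and 0.665 CPM at 2 dyn/cm2. The ligand Tgfb2, given above with the YAP and TAZ targets, fell, as did Tgfbi, given below with the mesenchymal genes. Tgfb2, Tgfb3, Ltbp2 and Tgfbi belong to other lists and are outside the counts of this one.

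Several BMP targets were among the genes that fell. Id2, an inhibitor of basic helix-loop-helix factors, held 3.3, 3.07 and 2.64 CPM at 30 and 13.7, 20.1 and 13.2 CPM at 2 dyn/cm2. All 3 libraries at 30 dyn/cm2 were below those at 2 dyn/cm2 (log2 fold change -2.39 ± 0.18, SE; edgeR adjusted p = 2.99e-11). Atoh8 (-2.49), Id3 (-1.10) and the BMP SMAD Smad9 (-0.79) fell as well. Replicate 2 at 2 dyn/cm2 was the highest library for Id1, Id2 and Id3. Id1 libraries overlapped between the shears, with 16.8, 18.3 and 17.1 CPM at 30 and 20.6, 27.5 and 17.6 CPM at 2 dyn/cm2. Its log2 fold change of -0.34 passed (edgeR adjusted p = 0.0182) but was -0.13 without replicate 2 at 2 dyn/cm2 and did not pass (adjusted p = 0.215). It also missed the threshold without replicate 1 or 3 at 30 dyn/cm2 and with the compared groups alone (adjusted p = 0.0664, 0.055 and 0.112).

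Matrix genes moved in both directions. Of 41 measured matrix genes, 27 (65.9%) rose and 11 (26.8%) fell, with a median log2 change of 0.535, and their summed level was higher in each library at 30 dyn/cm2. Some basement membrane and elastic fibre genes were among those that rose. Col4a1, a chain of basement membrane collagen IV, held 2583, 2616 and 2628 CPM at 30 and 934, 973 and 929 CPM at 2 dyn/cm2, and its neighbour Col4a2 rose by 1.47 on the log2 scale. Postn, the matricellular protein periostin, held 2444, 2439 and 2493 CPM at 30 and 714, 815 and 662 CPM at 2 dyn/cm2. Libraries of the shears were apart in both genes (edgeR adjusted p = 4.56e-33 and 4.69e-23). The fibrillin Fbn1 (1.52), the vessel wall collagen Col8a1 (1.66), tenascin C, Tnc (1.47), the proteoglycan Bgn (1.31), Fbln2 (1.07) and Thbs1 (1.08) rose by over 1 on the log2 scale. Fibronectin, Fn1, averaged 13723 ± 375 CPM at 30 and 9469.6 ± 712 CPM at 2 dyn/cm2 (SD, n = 3 each) and rose by 0.54.

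Col3a1, the fibrillar collagen III, was among the 11 matrix genes that fell, with 2798, 2724 and 3004 CPM at 30 and 5606, 6646 and 5369 CPM at 2 dyn/cm2. Its libraries did not overlap, and the level was 2.07-fold lower (edgeR adjusted p = 7.43e-12). The small proteoglycans Lum (-2.56) and Dcn (-0.72) and the basement membrane genes Nid2, a nidogen (-2.25), and Col15a1 (-1.83) fell too. Col15a1 was scarce among these genes, with means of 0.224 CPM at 30 and 0.821 CPM at 2 dyn/cm2. Relatives of these genes went the other way, since the fibrillar chain Col1a1 rose by 0.55, as did the proteoglycan Bgn given above. Col1a2, the other chain of collagen I, passed at 0.27, but not by DESeq2 or with library totals (adjusted p = 0.111 and 0.132), nor without replicate 3 at 30 or replicates 1 or 3 at 2 dyn/cm2. In the 6 libraries Col3a1, Nid2 and Dcn were all highest in replicate 2 at 2 dyn/cm2. Without that library 27 matrix genes rose and 11 fell, as with it. Fibroblast markers summed to 1282 to 1391 CPM at 30 and 1440 to 1670 CPM at 2 dyn/cm2, with 5 of 12 measured markers higher and 6 lower and Tcf21 without a read. Their part in the matrix result was not tested.

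Of 32 measured enzymes of matrix crosslinking and turnover, 15 (46.9%) rose and 11 (34.4%) fell. Lox, which crosslinks collagen and elastin, held 4343, 4450.2 and 4517 CPM at 30 and 1408, 1550.3 and 1404 CPM at 2 dyn/cm2, 3.05-fold higher. The protease inhibitors Timp1 (1.21) and Timp3 (1.17) and the urokinase receptor Plaur (1.45) rose, and the proteases Adamts9 (-2.23) and Adamts1 (-0.93) fell. Integrins, the matrix receptors, were higher in 8 of 16 cases (50.0%) and lower in 4 (25.0%). Itgb5 held 1087, 1098 and 1157 CPM at 30 and 352, 351 and 348 CPM at 2 dyn/cm2, and Itgb3 held 118, 119 and 118 CPM at 30 and 30.4, 26.5 and 28.5 CPM at 2 dyn/cm2. Both pair with the alpha v chain, Itgav, which rose by 0.32 on the log2 scale, and both were clear of overlap. Itgb1 (1.10) and Itga5 (0.74), the chains of the main fibronectin receptor, rose, whereas Itgb8 (-1.77) and Itga8 (-2.34) fell.

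Actin cytoskeleton and contractile genes were mostly higher, with 25 of 35 (71.4%) up and 6 (17.1%) down, or 18 and 9 with library totals. Acta2, smooth muscle actin, held 2082, 1970.1 and 1969.9 CPM at 30 and 1021, 1205 and 1085 CPM at 2 dyn/cm2, and Tagln, an actin-binding protein of smooth muscle, held 787, 704 and 719 CPM at 30 and 261, 309 and 277 CPM at 2 dyn/cm2. Neither overlapped (edgeR adjusted p = 4.55e-15 and 1.46e-14), and static cells averaged 659 CPM of Acta2, below both. Smaller rises were seen in the filamin Flna (0.60) and the myosin Myh9 (0.56). The smooth muscle kinase Mylk (-1.84), Lmod1 (-1.39) and Des (-0.72) fell. Of 7 measured smooth muscle and pericyte markers, 3 rose and 4 fell, and their summed level ran from 1680 to 1779 CPM at 30 dyn/cm2 and from 913 to 929 CPM at 2 dyn/cm2, Kcnj8 having no read. The part of such cells in the contractile result was not tested. Of 19 mesenchymal transition genes, 12 (63.2%) rose and 5 (26.3%) fell. Among them were the cadherin Cdh11 (1.41) and Foxc2 (1.57) upward and Tgfbi (-1.67) and Twist1 (-0.51) downward. Foxc2 was scarce, with means of 1.69 CPM at 30 and 0.569 CPM at 2 dyn/cm2.

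**Figure D3:**
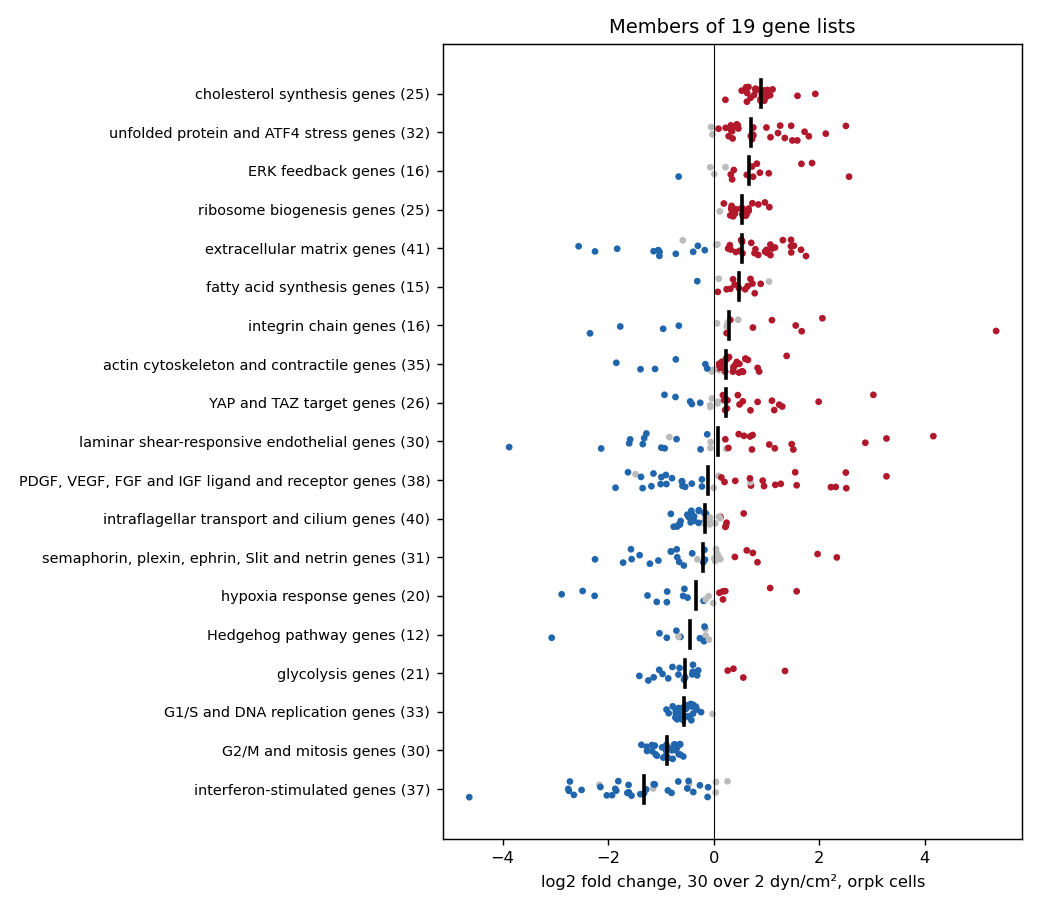
Log2 fold change (30 over 2 dyn/cm2) of each measured member of 19 gene lists in orpk cells, 1 point per gene and the number measured in brackets. Red and blue members passed the test upward and downward, grey ones did not, and the black bar is the list median. Cholesterol synthesis genes all lie above 0 and G2/M genes all below it, whereas matrix and growth factor genes lie on both sides.

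Genes of the unfolded protein response, which answers misfolded protein, and of ATF4, a stress factor that drives amino acid genes, rose together. Of 32 genes of this joint list, 30 (93.8%) rose and 0 fell (0 at an unadjusted p under 0.05 by edgeR, and 0 by DESeq2), with a median log2 change of 0.716. Asns, asparagine synthetase, held 501, 497 and 513 CPM at 30 and 171, 166 and 166 CPM at 2 dyn/cm2, 3-fold higher. Trib3, a pseudokinase that ATF4 induces, held 135, 130.2 and 143 CPM at 30 and 30.8, 34.8 and 27.8 CPM at 2 dyn/cm2. The libraries of the shears were apart in both (edgeR adjusted p = 5.93e-29 and 4.12e-30). Cth, which makes cysteine (2.51 on the log2 scale), the proline enzyme Pycr1 (1.72), the mitochondrial one-carbon enzymes Shmt2 (1.49) and Mthfd2 (1.35), the amino acid transporter Slc7a5 (1.47) and Atf4 itself (1.22) rose. Slc7a11, the cystine importer, held 116, 122 and 129.6 CPM at 30 and 22, 24 and 19.2 CPM at 2 dyn/cm2. Ddit3, the stress factor CHOP, held 32.7, 32.9 and 33.6 CPM at 30 and 32.4, 38.2 and 29.8 CPM at 2 dyn/cm2, which overlapped and did not pass. Hspa5, a chaperone of the endoplasmic reticulum, rose by 0.44. Relative to WT the step was higher in 29 of the 32 genes and lower in 0 by the edgeR interaction test (0 at an unadjusted p under 0.05).

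The ATF4 motif TGATGNAA, chosen after the list's values were seen, was in promoters of 7 of 28 of these genes (25%) and in 3.97% of all promoters. The Asns and Trib3 promoters are shown because both rose strongly and each holds it once, in capitals (GRCm38.p6, RefSeq; chr6:7693160-7693459 and chr2:152344011-152344310, both minus strand).
Asns: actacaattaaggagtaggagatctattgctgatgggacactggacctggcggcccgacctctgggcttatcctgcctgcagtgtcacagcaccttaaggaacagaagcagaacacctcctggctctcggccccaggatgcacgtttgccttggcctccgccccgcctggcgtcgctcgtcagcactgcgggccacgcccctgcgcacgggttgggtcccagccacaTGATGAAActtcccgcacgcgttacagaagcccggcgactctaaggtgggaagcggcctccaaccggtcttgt
Trib3: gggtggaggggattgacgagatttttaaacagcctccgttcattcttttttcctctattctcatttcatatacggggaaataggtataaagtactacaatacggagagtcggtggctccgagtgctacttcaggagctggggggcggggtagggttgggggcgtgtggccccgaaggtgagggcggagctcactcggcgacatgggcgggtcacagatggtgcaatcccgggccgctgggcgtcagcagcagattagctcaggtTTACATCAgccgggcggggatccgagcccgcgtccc

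All 25 measured cholesterol synthesis genes rose, with a median log2 change of 0.891, and each of them also rose without replicate 2 at 2 dyn/cm2. Sqle, the squalene epoxidase, held 804, 836 and 850.0 CPM at 30 and 476, 493 and 471 CPM at 2 dyn/cm2. Tm7sf2, a sterol reductase, held 96.7, 98.7 and 99.3 CPM at 30 and 29.6, 36.5 and 31.7 CPM at 2 dyn/cm2. Neither gene overlapped between the shears (edgeR adjusted p = 7.30e-24 and 4.22e-25). Mvd (1.12 on the log2 scale) and Hmgcs1 (0.53), which act early in the pathway, rose, and the controlling factor Srebf2 rose by 0.22. Of 15 fatty acid synthesis genes, 12 (80.0%) rose and 1 (6.67%) fell. The desaturase Scd1 (0.89) and Acly, which makes cytosolic acetyl-CoA (0.70), rose, and the factor Srebf1 (-0.31) fell. In WT cells, where 15.9% of all genes rose and 17.2% fell over the same step, 1 of the 25 cholesterol genes rose and 14 fell, and the interaction was higher in 24 of them and lower in 0 (0 at an unadjusted p under 0.05).

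The sterol element TCACCCCAC was in a promoter of 1 of 17 of these genes (5.88%) and in 0.551% of all promoters. That promoter, of Hmgcs1, is shown with the element in capitals (GRCm38.p6, RefSeq; chr13:119690101-119690400, plus strand).
Hmgcs1: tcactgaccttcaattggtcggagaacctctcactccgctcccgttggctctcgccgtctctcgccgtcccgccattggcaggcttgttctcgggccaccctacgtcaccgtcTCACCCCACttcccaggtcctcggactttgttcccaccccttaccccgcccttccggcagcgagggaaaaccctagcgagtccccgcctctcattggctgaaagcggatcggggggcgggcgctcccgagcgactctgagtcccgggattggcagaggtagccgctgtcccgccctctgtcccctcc

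Cell division genes fell. All 30 measured G2/M and mitosis genes were lower, with a median log2 change of -0.878, and 32 of 33 G1/S and replication genes were lower, with a median of -0.564. Mki67, a marker of cycling cells, held 211, 194 and 186 CPM at 30 and 459.5, 486 and 471 CPM at 2 dyn/cm2. Top2a, the topoisomerase of dividing cells, held 500.0, 457 and 453 CPM at 30 and 904, 929 and 899 CPM at 2 dyn/cm2. Both were 2.4-fold and 1.94-fold lower with no overlap (edgeR adjusted p = 6.25e-15 and 2.20e-24). The spindle gene Aspm (-1.37) and the kinase Plk1 (-0.90) fell, as did the replication genes Cdc6 (-0.72), Lig1 (-0.85) and Slbp, which binds histone RNA (-0.89). Static cells averaged 279.6 CPM of Mki67 and 19.8 CPM of Cdc6, so that at 30 dyn/cm2 Cdc6 was above the static mean and Mki67 below it. In WT cells 2 of the 30 G2/M genes rose and 4 fell, and the interaction was lower in all 30.

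E2F motifs TTTCCCGC or TTTGGCGC are bound by the factors that switch on replication genes. They were in promoters of 10 of 28 replication genes (35.7%), of 0 of 25 G2/M genes and in 1.56% of all promoters. Cdc6, which loads the replication helicase, is shown with the motif in capitals (GRCm38.p6, RefSeq; chr11:98907901-98908200, plus strand).
Cdc6: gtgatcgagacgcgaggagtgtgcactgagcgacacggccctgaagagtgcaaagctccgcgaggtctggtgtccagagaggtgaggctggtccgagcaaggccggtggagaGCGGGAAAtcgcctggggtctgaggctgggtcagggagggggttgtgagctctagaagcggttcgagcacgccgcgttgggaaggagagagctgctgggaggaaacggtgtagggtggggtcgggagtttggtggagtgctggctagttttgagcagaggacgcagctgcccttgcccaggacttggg

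Growth factor genes changed in nearly equal numbers each way, with 16 of 38 (42.1%) higher and 18 (47.4%) lower. Among ligands that rose, Hbegf, which activates the EGF receptor, held 72.1, 71.3 and 75.6 CPM at 30 and 15.3, 14.7 and 16.9 CPM at 2 dyn/cm2. Pdgfb, which recruits mural cells, held 18.5, 16.9 and 13.8 CPM at 30 and 2.25, 1.8 and 1.05 CPM at 2 dyn/cm2. No library overlapped in either (edgeR adjusted p = 1.05e-29 and 4.31e-23). Fgf2 (2.50), Pdgfc (1.27), Vegfa (1.57), Pgf (1.55) and the binding protein Igfbp7 (2.51) rose, and Vegfd (-1.62) and Fgf7 (-1.35) fell. The PDGF receptors parted. Pdgfra held 148, 144 and 154 CPM at 30 and 536, 589 and 491 CPM at 2 dyn/cm2, 3.63-fold lower, while Pdgfrb rose by 0.71 on the log2 scale.

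Genes of the ERK feedback list were mostly higher, with 12 of 16 (75.0%) up and 1 (6.25%) down and a median log2 change of 0.678. The list holds genes that the ERK kinases induce to limit their own signal, such as Dusp4. It also holds ETV factors and Il1rl1, which are not of that kind. Dusp4, a phosphatase of the ERK kinases, held 258, 271 and 257 CPM at 30 and 43.7, 41 and 48.1 CPM at 2 dyn/cm2, a gap with no overlap (edgeR adjusted p = 2.58e-34). Etv4 (1.66), Dusp6 (0.88), Spry4 (1.04) and Il1rl1 (1.86) rose, and Etv1 (-0.66) fell. Of 23 immediate early genes, 15 (65.2%) rose and 6 (26.1%) fell, with Maff (1.65) and Myc (0.86) higher and Fos (-1.29) lower. Ribosome biogenesis genes, which Myc is known to drive, rose in 24 of 25 cases (96.0%), among them Rrp12 (1.06) and Noc2l (0.97). In WT cells 24 of the 25 also rose, and the interaction was higher in 21.

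Glycolysis and hypoxia genes were lower at 30 than at 2 dyn/cm2, with exceptions. Of 21 glycolysis genes, 17 (81.0%) fell and 4 (19%) rose. Of 20 hypoxia genes, 11 (55.0%) fell and 6 (30.0%) rose, or 12 and 3 with library totals. Ldha, which makes lactate, held 334, 328 and 339 CPM at 30 and 608, 692 and 657 CPM at 2 dyn/cm2. Bnip3, a mitophagy receptor that hypoxia induces, held 9.21, 9.07 and 7.44 CPM at 30 and 59.1, 68.1 and 62.6 CPM at 2 dyn/cm2. Both were clear of overlap, 1.96-fold and 7.36-fold lower (edgeR adjusted p = 1.90e-19 and 1.19e-27), and static cells averaged 1538 and 216 CPM, above both shears. Pfkl (-1.41), Tpi1 (-1.14) and the pyruvate dehydrogenase kinase Pdk1 (-2.26) fell. Hk2, the hexokinase that starts glycolysis, went against these, with 81.3, 79.5 and 82.8 CPM at 30 and 32.5, 30.1 and 32.8 CPM at 2 dyn/cm2. Vegfa held 284, 296 and 297 CPM at 30 and 96.8, 97.5 and 100.4 CPM at 2 dyn/cm2. Neither overlapped, and Hk2 and Vegfa averaged 205 and 371 CPM in static cells, above both shears. Slc2a1 (0.27) and Stc2 (1.07) rose as well. Gapdh and Pgk1 have many near-identical copies in the genome, so their counts are uncertain.

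Txnip, which binds thioredoxin and limits glucose uptake (chromosome 3, 96557957 to 96561883), fell steeply. It held 19.9, 17.1 and 19 CPM at 30 and 326, 399 and 307 CPM at 2 dyn/cm2, 18.5-fold lower. The groups were far apart, although replicate 2 at 2 dyn/cm2 was above the other 2 (log2 fold change -4.21 ± 0.11, SE; edgeR adjusted p = 3.80e-14). Static cells averaged 166 CPM, between the shears. The related arrestins Arrdc3 (-2.40) and Arrdc4 (-1.52), which also follow cell glucose through the factor MondoA, fell. Of the 7 genes of that list, 4 fell and 1 rose.

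The core hypoxia motif ACGTG was in promoters of 13 of 20 glycolysis genes (65%) and 12 of 16 hypoxia genes (75%), beside 19.6% of all promoters. Ldha, which fell, and Hk2, which rose, both hold it in capitals (GRCm38.p6, RefSeq; chr7:46845554-46845853, plus strand, and chr6:82774405-82774704, minus strand), on either strand and in Ldha partly overlapping its own reverse complement.
Ldha: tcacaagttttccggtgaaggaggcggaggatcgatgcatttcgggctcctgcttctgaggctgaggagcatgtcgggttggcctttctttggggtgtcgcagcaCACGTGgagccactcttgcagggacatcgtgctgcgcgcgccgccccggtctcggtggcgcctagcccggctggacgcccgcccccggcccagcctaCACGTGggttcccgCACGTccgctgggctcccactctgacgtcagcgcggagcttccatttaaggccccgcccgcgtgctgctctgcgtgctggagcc
Hk2: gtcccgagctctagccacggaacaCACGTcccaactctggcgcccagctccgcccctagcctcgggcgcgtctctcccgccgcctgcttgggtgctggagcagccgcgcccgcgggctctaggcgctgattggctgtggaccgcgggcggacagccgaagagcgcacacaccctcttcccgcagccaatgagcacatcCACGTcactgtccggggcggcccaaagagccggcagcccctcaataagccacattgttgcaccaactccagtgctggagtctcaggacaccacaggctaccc

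Interferon-stimulated genes fell, with 30 of 37 (81.1%) lower and 0 higher (0 at an unadjusted p under 0.05 by edgeR, and 0 by DESeq2). Their median log2 change was -1.318, the lowest of the lists with at least 10 measured genes, and -1.317 with Oas2, which had no read at 30 dyn/cm2, set at its bound. Ifit1, which binds viral RNA, held 3.15, 2 and 2.64 CPM at 30 and 17.5, 20.2 and 14.7 CPM at 2 dyn/cm2. Gbp2, a guanylate-binding protein of host defence, held 6.07, 7 and 5.74 CPM at 30 and 38.5, 43.3 and 36.5 CPM at 2 dyn/cm2. Neither overlapped (edgeR adjusted p = 9.30e-10 and 2.02e-26). Isg15 (-1.61), the immunoproteasome subunit Psmb9 (-2.15) and Cxcl10 (-1.86) fell, and Irf7, which averaged 0.102 CPM at 30 and 0.229 CPM at 2 dyn/cm2, did not pass. Other guanylate-binding proteins were among the 15 lowest genes, Gbp9 with 5.39, 6 and 4.73 CPM at 30 and 57.2, 59 and 51.7 CPM at 2 dyn/cm2, and Gbp4 (-3.44) and Gbp8 (-2.92) beside it. These genes are close copies of each other, so the split of reads among them is uncertain. In WT cells 29 of the 37 were lower over the same step and 0 higher (0 at an unadjusted p under 0.05 by edgeR), and the interaction was higher in 4 and lower in 12.

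The interferon element GAAANNGAA was in promoters of 16 of 28 of these genes (57.1%) and in 8.56% of all promoters. Ifit1 is shown because it fell and holds the element, with its 3 matches in capitals (GRCm38.p6, RefSeq; chr19:34640639-34640938, plus strand).
Ifit1: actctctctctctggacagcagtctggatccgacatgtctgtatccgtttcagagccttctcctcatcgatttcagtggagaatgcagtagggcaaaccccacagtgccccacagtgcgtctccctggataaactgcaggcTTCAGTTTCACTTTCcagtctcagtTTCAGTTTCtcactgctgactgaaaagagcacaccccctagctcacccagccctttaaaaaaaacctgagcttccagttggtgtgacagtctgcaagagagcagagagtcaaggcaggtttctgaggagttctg

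Leukocyte adhesion and chemokine genes fell in 13 of 25 cases (52.0%) and rose in 7 (28.0%). Vcam1, which holds leukocytes to endothelium, held 90.5, 86.5 and 92.6 CPM at 30 and 209, 249 and 194 CPM at 2 dyn/cm2, with no overlap (log2 fold change -1.28 ± 0.07, SE; edgeR adjusted p = 1.32e-12). Il33 (-3.46), Cxcl12 (-1.31), Cxcl1 (-1.87) and Ccl5 (-2.79) fell. Ccl2, which attracts monocytes, held 434, 414 and 447 CPM at 30 and 152, 158 and 155 CPM at 2 dyn/cm2 and rose, as did P-selectin, Selp (1.60). Macrophage and leukocyte markers summed to 15.6 to 16.5 CPM at 30 and 19.7 to 21.2 CPM at 2 dyn/cm2, and Adgre1, Tyrobp, C1qa, C1qb, C1qc and Cd3e had no read in the 6 libraries.

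Genes known to answer laminar shear in endothelium split, with 14 of 30 (46.7%) higher and 12 (40%) lower. Klf4, a shear-induced factor of quiescent endothelium, held 258, 262 and 250.5 CPM at 30 and 89.4, 97.1 and 83.5 CPM at 2 dyn/cm2. Klf2, its partner, held 15.3, 16 and 16.8 CPM at 30 and 6.15, 9.62 and 7.24 CPM at 2 dyn/cm2. Both were higher without overlap (log2 fold changes 1.51 ± 0.05 and 1.05 ± 0.12, SE; edgeR adjusted p = 2.30e-23 and 4.18e-09). Static cells averaged 28.1 CPM of Klf2, above both shears. Nos3, the endothelial nitric oxide synthase, had 0.3, 0.143 and 0 CPM at 30 and 0.132, 0.12 and 0.124 CPM at 2 dyn/cm2, too few reads to compare. The receptor kinase Tek (-1.60) and Kdr, the main VEGF receptor (-1.74), both at a few CPM or less, fell. Of the 17 endothelial identity genes, 5 rose and 5 fell (29.4% each, near the shares of all genes), and the summed level of the list, mostly Cd34, ran from 1120 to 1126 CPM at 30 and from 755 to 818 CPM at 2 dyn/cm2.

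Among 17 vasoactive peptides and receptors, 5 (29.4%) rose and 9 (52.9%) fell. Edn1, the constrictor endothelin 1, held 10.9, 10.5 and 9.69 CPM at 30 and 4.5, 4.09 and 5.32 CPM at 2 dyn/cm2 and was higher (edgeR adjusted p = 2.38e-10). Its receptor Ednra (-1.28) fell, and the bradykinin receptor Bdkrb2 (1.14) rose. Agtr2, an angiotensin receptor, had 2 reads over the 3 libraries at 30 dyn/cm2 and 167 at 2 dyn/cm2, 70.1-fold lower with a 95% exact counting interval of 19.1 to 584. Adm, the dilator adrenomedullin, averaged 0.125 ± 0.0868 CPM at 30 and 0.724 ± 0.314 CPM at 2 dyn/cm2 (SD, n = 3 each). Of 18 channels and polycystins that sense flow, 9 (50.0%) rose and 5 (27.8%) fell. Piezo1, a stretch-gated channel, held 534, 532 and 526 CPM at 30 and 401, 419 and 413 CPM at 2 dyn/cm2, and the ciliary polycystin genes Pkd1 (0.58) and Pkd2 (0.24) rose too, all by less than 1 on the log2 scale.

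Hedgehog signalling, which runs through the primary cilium, had no gene that rose. Of 12 measured genes, 8 (66.7%) fell by edgeR and 9 by DESeq2 (0 rose by either, or at an unadjusted p under 0.05 by edgeR). Gas1, a Hedgehog co-receptor, held 15.1, 14.8 and 17.7 CPM at 30 and 128, 144 and 126 CPM at 2 dyn/cm2, 8.39-fold lower with no overlap (edgeR adjusted p = 1.87e-32). The co-receptors Boc (-1.03) and Cdon (-0.89) and the factor Gli2 (-0.71) fell. The pathway's own targets Gli1 and Ptch1, at -0.15 and -0.15, did not pass in the main run. Ptch1 did pass downward by DESeq2 (adjusted p = 0.047) and by edgeR with library totals (adjusted p = 0.00104). By edgeR it also passed with DESeq2 size factors, without the filter, with the compared groups alone and with a replicate block. It passed without replicate 2 or 3 at 30 dyn/cm2 as well. Of 40 intraflagellar transport and cilium genes, 25 (62.5%) fell and 6 (15.0%) rose, or 30 and 1 with library totals, with a median log2 change of -0.171. Bbs2, of the complex that moves membrane proteins into cilia, held 18.8, 18.7 and 17 CPM at 30 and 30.7, 32.1 and 32.9 CPM at 2 dyn/cm2, and Ift122 held 29.3, 30.9 and 29.5 CPM at 30 and 48.5, 53.9 and 49.1 CPM at 2 dyn/cm2. Both fell without overlap, whereas Ift57 (0.57) rose.

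**Figure D4:**
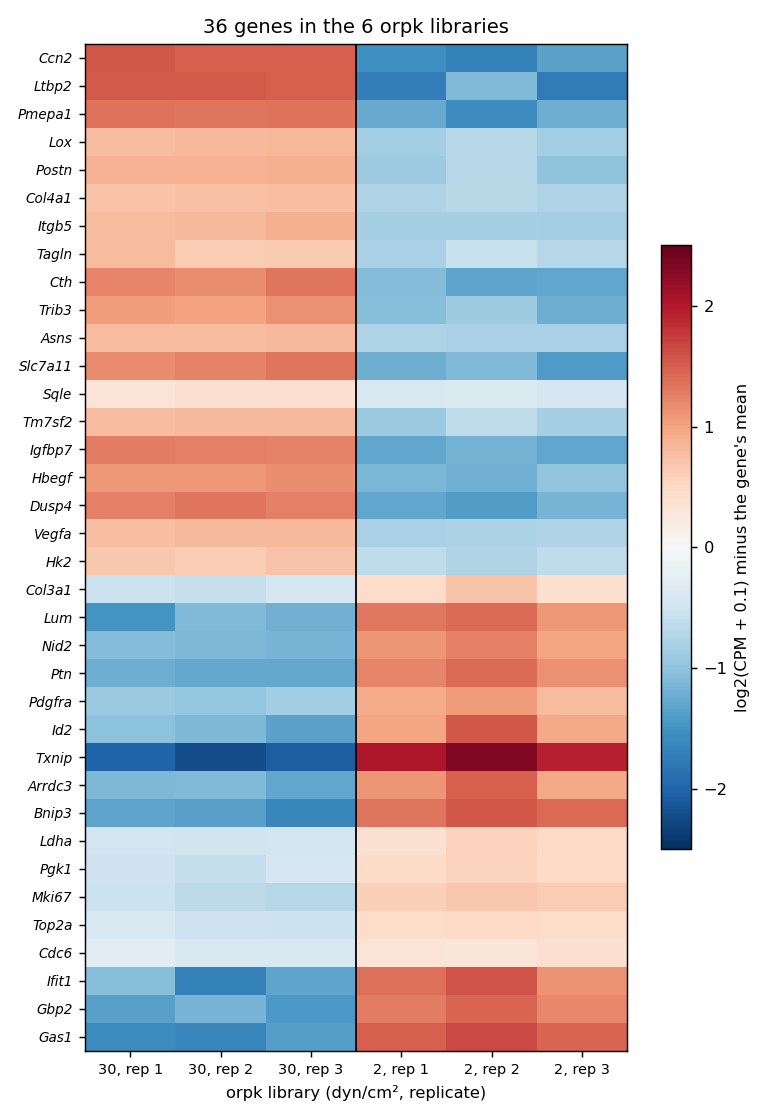
Colour gives log2(CPM + 0.1) minus the gene's mean for 36 named genes in the 3 orpk libraries at 30 dyn/cm2 (left of the line) and the 3 at 2 dyn/cm2 (right). The genes in the upper rows, from Ccn2 to Hk2, are higher at 30 dyn/cm2 and the rest lower; replicate 2 at 2 dyn/cm2 is the highest library for Txnip, Id2, Nid2 and Ptn.

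Fewer genes passed over the same step in WT cells, 4316 of 13058 (33.1%), with 2071 higher and 2245 lower. The genes tested were chosen for their reads over all 6 groups, so some were scarce or absent in WT cells. Adamts9 and Cdh26, for example, had 0 reads in WT cells at both shears and could not pass there. The difference between the steps passed in 6073 genes (46.5%), of which 3261 were higher and 2812 lower in orpk relative to WT, by over 1 on the log2 scale in 327 (2.50%) and 469 (3.59%). With library totals 2386 were higher and 3756 lower. Of the 8306 genes called in orpk cells, 2183 (26.3%) were called in the same direction in WT cells and 871 (10.5%) in the opposite direction. The other 5252 (63.2%) were not called there, which mixes genes scarce or absent in WT cells with measured genes that did not pass. Summed levels of some lists already differed under flow. Matrix genes summed to 58170 to 89540 CPM in orpk cells and to 7684 to 11650 CPM in WT cells. Fibroblast markers summed to 1282 to 1670 CPM in orpk and 8.71 to 17.1 CPM in WT cells. The interaction therefore cannot tell the genotype from such differences between the cultures. Txnip fell to 18.7 ± 1.38 CPM at 30 dyn/cm2, against 344 ± 48.7 CPM at 2 dyn/cm2 in orpk cells, and averaged 22.4 ± 1.4 CPM at 30 and 37.5 ± 0.938 CPM at 2 dyn/cm2 in WT cells (SD, n = 3 each). Both fell, and the orpk step differed from the WT step by -3.46 on the log2 scale (edgeR adjusted p = 3.97e-10). Collagen IV parted between orpk and WT cells. Col4a1 stood at 1.46 on the log2 scale in orpk cells and -0.63 in WT cells (interaction adjusted p = 1.34e-14, edgeR). In WT cells it was a scarce transcript that averaged 1.57 ± 0.12 CPM at 30 and 2.44 ± 0.185 CPM at 2 dyn/cm2 (SD, n = 3 each). Some steps were near each other. Skil rose by 1.24 in orpk and 1.16 in WT cells, a difference of 0.08 ± 0.13 (SE; adjusted p = 0.666, edgeR) that did not pass.

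**Figure D5:**
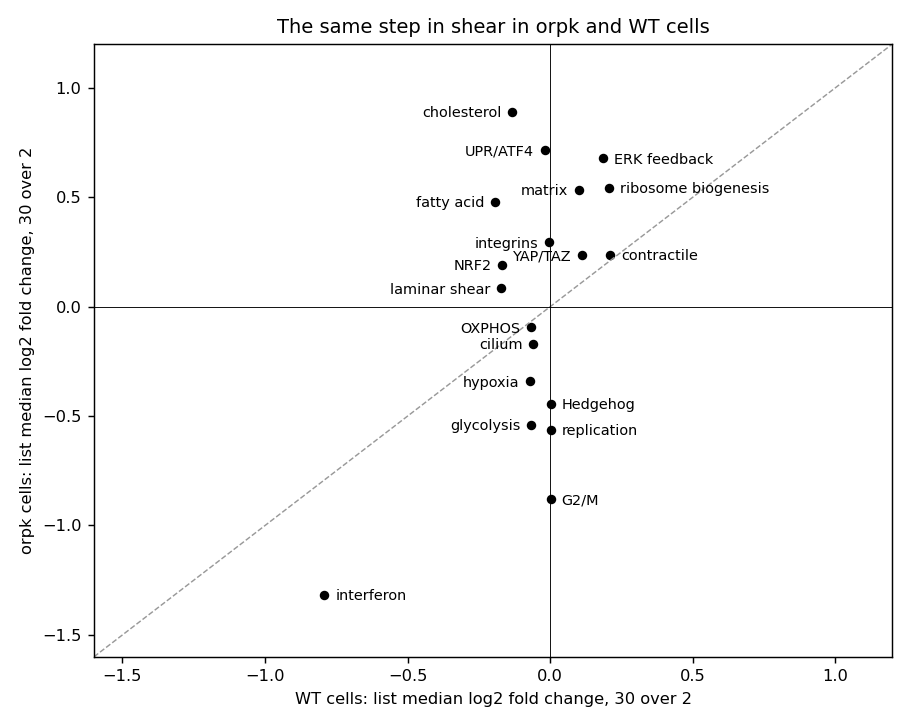
Median log2 fold change (30 over 2 dyn/cm2) of 19 gene lists in orpk cells (vertical axis) and WT cells (horizontal axis); the dashed line marks equal medians. Cholesterol and UPR/ATF4 genes lie high and G2/M and replication genes low in orpk cells. The WT median is -0.133 for cholesterol genes and near 0 for UPR/ATF4, G2/M and replication genes, and interferon genes are low in both.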

How the data were processed

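Whole-cell RNA of cultured cells was sequenced as 50-base single-end reads from a stranded mRNA kit, per the labels. Per the submitters' processing notes, CASAVA 1.8.2, STAR 2.4, featureCounts 1.4.6 and the build GRCm38 were used. The authors deposited 1 table of raw counts per gene, not normalized; strand and multi-mapping settings are not given in the sources used here, so antisense partners and near-identical copies cannot be told apart. Of the 216 genes named in the text and tested, 116 overlap another gene and 95 do so on the other strand. The deposited IDs matched a symbol for 21583 of 21647 genes.

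Counts were tested with edgeR 4.0.16 (quasi-likelihood F test, robust, TMM scaling, filterByExpr) under R 4.3.3, with means for all 6 groups of 3 libraries, 12 residual degrees of freedom and Benjamini-Hochberg adjusted p under 0.05 over 13058 genes. The biological coefficient of variation was 3.28%. The interaction is the orpk step minus the WT step. Errors are SD over libraries or SE of log2 fold changes, and intervals for genes with few reads cover counting error only. Scripts were tested on simulated data in which 200 of 12942 genes changed, far fewer than passed here. There 7.75% of calls for the shear step and 7% for the interaction were false, above the threshold of 0.05. Of changes of 0.25 on the log2 scale, 56% and 28% were found.

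Members and the 45 gene lists were chosen with earlier results of these data known, so counts and medians over a list carry no test of their own. They are descriptions, to be set against 32.1% higher, 31.5% lower and a median log2 change of -0.009 over all genes. Genes were named by rule: 10 known genes, including the targeted one, the 15 strongest rises and 15 strongest falls with a mean of at least 5 CPM and no overlap of libraries, the 8 largest rises and 8 largest falls in CPM among them, up to 6 called members per list, and the 6 strongest interactions each way with at least 4 reads in each group; others named were chosen after their values were seen. Not all genes the rule allows are printed, and some are not reported here. Same-numbered libraries of the 2 shears correlated by 0.021, -0.0198 and 0.0109 in their deviations from the group means, so the numbers do not pair them. Alternatives were DESeq2 1.42.0, its size factors, library totals, no filter, the compared groups alone, a replicate block and leaving out each library. Promoters come from RefSeq (GRCm38.p6).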

Additional observations from a re-analysis of the deposited data

Results flagged for a closer look

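The step to 30 dyn/cm2 differed between orpk and WT cells, by the edgeR interaction test, in 3261 genes that were higher and 2812 that were lower in orpk relative to WT. The genes given next are the 6 strongest each way that the naming rule took, and all were picked out by that test of the difference itself.

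Pi16 and Cbs led the upper end. Pi16 differed by 4.38 on the log2 scale, with 28.6 ± 2.7 CPM at 30 and 1.59 ± 0.183 CPM at 2 dyn/cm2 in orpk cells, and 0.207 ± 0.0239 CPM at 30 and 0.241 ± 0.0527 CPM at 2 dyn/cm2 in WT cells (SD, n = 3 each). Cbs, which joins homocysteine to serine, differed by 3.7, and Cth, the next enzyme of that route, by 2.56. Cbs averaged 1.22 ± 0.242 CPM at 30 and 0.254 ± 0.123 CPM at 2 dyn/cm2 in orpk cells, and 15.7 ± 0.485 CPM at 30 and 43 ± 1.01 CPM at 2 dyn/cm2 in WT cells (SD, n = 3 each). Anxa8 differed by 2.93, Fgf2 by 2.86 and Pdzk1ip1, a small membrane protein, by 2.62. Fgf2 was scarce in WT cells, with 0.378 ± 0.168 CPM at 30 and 0.486 ± 0.163 CPM at 2 dyn/cm2 (SD, n = 3 each).

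At the lower end, Txnip differed by -3.46, the splicing factor Rbm20 by -3.05, the calpain relative Capn6 by -2.93, Cdsn by -2.88, the ephrin receptor Epha7 by -2.81 and Megf6 by -2.71. The Megf6 interaction missed the threshold without replicate 2 at 2 dyn/cm2, at -2.02 (adjusted p = 0.0558, edgeR). Without that library the Megf6 step within orpk cells was -0.90 and did not pass (adjusted p = 0.379, edgeR). That step also did not pass by DESeq2 (adjusted p = 0.0644). By edgeR it missed without the filter (adjusted p = 0.0528) and without replicate 1 or 3 at 30 dyn/cm2 (adjusted p = 0.107 and 0.101). Capn6 averaged 89.8 ± 2.41 CPM at 30 and 431 ± 14.5 CPM at 2 dyn/cm2 in orpk cells, and 0.72 ± 0.306 CPM at 30 and 0.448 ± 0.0363 CPM at 2 dyn/cm2 in WT cells (SD, n = 3 each). No reason for these differences was tested.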

How the results depend on the processing

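Counts of genes higher and lower at 30 dyn/cm2 stayed within 1.5 times under each alternative run. DESeq2 gave 3766 higher and 4040 lower, DESeq2 size factors in edgeR 3985 and 4316, no filter 4184 and 4215, and the compared groups alone 4151 and 4189. Library totals moved the share of higher genes among the calls to 34.4%, beside 50.4% with TMM. Leaving out each orpk library in turn gave 3944 to 4000 higher and 3811 to 3945 lower, and 3066 to 3134 higher and 2590 to 2683 lower for the interaction. Replicate 1 of WT cells at 2 dyn/cm2 also stood apart, and without it, an alternative added after seeing the data, the interaction gave 3223 and 2799. Same-numbered libraries share only a number, and a fit with the replicate block gave 4180 higher and 4105 lower. Of the genes that did not pass, Nos3 ran from -0.70 to 0.77 and Ddit3 from -0.10 to 0.087 on the log2 scale when each library was left out, each with either sign; Nos3 was below 0 without replicate 1 at 30 dyn/cm2. Library totals also moved lower calls to 8, beside 5, in the YAP and TAZ list and in the p53 list, to 1, beside 0, in the ATF4 list, to 26, beside 17, in oxidative phosphorylation and to 3, beside 1, in epithelial markers, and higher calls to 3, beside 6, in hypoxia and to 1, beside 6, in cilium genes. Leaving out replicate 2 at 2 dyn/cm2 gave 1 interferon gene higher, beside 0, and 0 muscle markers lower, beside 1, as did replicates 2 or 3 at 30 or 1 at 2 dyn/cm2 and the compared groups alone for the muscle markers. Without replicate 2 at 30 dyn/cm2, 4 NRF2 genes were lower, beside 7; without replicate 3 at 30 or at 2 dyn/cm2, 3 endothelial genes were lower, beside 5; without replicate 3 at 30 dyn/cm2, 3 epithelial markers were lower, beside 1; and without replicate 3 at 2 dyn/cm2, 2 MondoA genes were higher, beside 1. The cause of these shifts was not tested. Depth limits genes of under about 1 CPM, among them 16 of the 29 endothelial markers.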

Other observations

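Further lists are set beside all genes, of which 32.1% rose and 31.5% fell. Semaphorin, plexin and other guidance genes fell in 17 of 31 cases (54.8%) and rose in 6 (19.4%), with Robo1 (-2.25 on the log2 scale) and Sema3d (-1.72) lower and the netrin receptor Unc5b higher, at 226, 226 and 229.7 CPM at 30 and 38.6, 49.1 and 47 CPM at 2 dyn/cm2. Notch and Wnt genes passed in shares near those of all genes, which say nothing particular of either list. Of 15 Notch genes, 6 (40%) rose and 5 (33.3%) fell. Notch4, an endothelial receptor (2.59), Jag1 (1.02) and Hes1 (1.06) rose, and Notch3, a receptor of mural cells (-1.70), fell. Of 25 Wnt genes, 8 (32.0%) rose and 9 (36%) fell, with the ligand Wnt9a (2.29) higher and the inhibitor Sfrp2 (-3.36) lower. PPAR targets and fat oxidation genes fell in 14 of 24 cases (58.3%) and rose in 3 (12.5%), among them the lipase Lpl (-1.44) downward and Fgf21, a hormone of nutrient stress (2.31), upward. Oxidative phosphorylation genes fell in 17 of 36 cases (47.2%) and rose in 4 (11.1%), none by more than 1 on the log2 scale.

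Of 24 NRF2 targets, 15 (62.5%) rose and 7 (29.2%) fell, whereas in WT cells 1 rose and 13 fell, and the interaction was higher in 17 and lower in 2. Gclm, a subunit of the enzyme that makes glutathione (0.80), and Srxn1 (0.63) rose, and Gstm1 (-1.30) fell. Of 22 p53 targets, 13 (59.1%) rose and 5 (22.7%) fell, with Plk2 at 1.00 and the cycle inhibitor Cdkn1a at 0.33. Of 15 heat shock genes, 5 (33.3%) rose and 3 (20%) fell, which says nothing particular of the list. Cryab, a small chaperone of that list, held 508, 532 and 528 CPM at 30 and 153, 162 and 152 CPM at 2 dyn/cm2. Genes of the aryl hydrocarbon receptor fell in 6 of 8 cases (75.0%) and rose in 2 (25.0%). Replication-dependent histone genes rose in 4 of 6 measured cases and 0 fell, by edgeR and at an unadjusted p under 0.05. Their RNAs lack a poly(A) tail and the libraries came from an mRNA kit, so these levels are uncertain. Of the 25 in the table, 20 were under 1 CPM in all 6 libraries.

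Markers of other cell types were read at levels that differed widely between lists. Cardiac and skeletal muscle markers summed to 51.7 to 54.0 CPM at 30 and 11.5 to 13.5 CPM at 2 dyn/cm2, with 4 of 8 measured markers higher and 1 lower and Myog, Myod1 and Ckm without a read. The cardiac troponin Tnnt2 (2.67 in orpk cells, 2.92 in WT cells) and Acta1 (2.51) rose. Krt14, an epithelial keratin, held 5.84, 5.29 and 6.59 CPM at 30 and 0.198, 0.18 and 0.124 CPM at 2 dyn/cm2, while 2 of 13 measured epithelial markers rose and 1 fell. Epithelial markers summed to 188.1 to 193.3 CPM at 30 and 158.9 to 171.9 CPM at 2 dyn/cm2. Neural markers rose in 4 of 7 cases and fell in 2, with Tubb3 at 1.25, and summed to 310.7 to 327.9 CPM at 30 and 178.9 to 189.7 CPM at 2 dyn/cm2. Cartilage and bone markers rose in 3 of 8 cases and fell in 1, and summed to 463.8 to 491.6 CPM at 30 and 411.5 to 471.9 CPM at 2 dyn/cm2. Of the leukocyte markers 2 of 6 rose and 2 fell, and the 1 measured lymphatic marker, Pdpn (-0.29), fell.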
